A study of Mus musculus with 6 samples.

Results

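The genes described here are those of the aminoacyl-tRNA synthetases, the enzymes that load each tRNA with its amino acid, in MIN6 cells made to express parathyroid hormone-related protein (PTHrP). They were taken from the deposited gene table as protein-coding genes whose symbol has the form of a letter followed by ars, with or without a final 1 or 2, together with Eprs, Farsa and Farsb. Symbols that end in 2 were counted as mitochondrial and all others as cytosolic or dual. The rule gave 37 of 55487 genes, 20 of them cytosolic or dual and 17 mitochondrial, and used no measured value.

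MIN6 is a mouse insulin-secreting cell line with the character of pancreatic beta cells. Cells of this line were transfected with Lipofectamine, a lipid reagent, and received either full-length PTHrP (3 libraries, called PTHrP replicates 1 to 3) or the DsRed vector that served as the empty control (3 libraries, called DsRed replicates 1 to 3), and mRNA was collected within 3 days. Both groups therefore carry a plasmid and the transfection reagent, and no untransfected cells are among the 6 libraries. All libraries come from 1 cell line, expression was transient, and the labels give neither the promoter that drives PTHrP nor the share of cells that took up the plasmid. The labels do not say that the replicates were separate cultures, so p-values measure the spread between these libraries, which may be technical.

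The libraries held 84427033 to 94613684 counts, of which the 37 synthetase genes took 0.951% to 1.22%. Pthlh, which encodes PTHrP, was counted 697, 553 and 797 times in PTHrP replicates 1 to 3 and 0, 4 and 8 times in DsRed replicates 1 to 3, as the labels say (log2 fold change 7.36, adjusted p = 4.09e-05, edgeR). All 9 beta cell markers passed the filter on low counts, and their summed level was 51500 to 58300 CPM (reads of a gene per 1e6 counts of the library) in PTHrP and 52700 to 64700 CPM in DsRed. Most of that sum was Ins2 (33250 to 42680 CPM). Fold changes were below 0 in 8 of the 9 markers, while 48.7% of all genes tested were above 0. Pdx1 and Slc30a8 were lower in all 3 PTHrP libraries, against 7.88% of all genes (log2 fold change -0.08 in each, adjusted p = 0.672 and 0.671, edgeR). Markers of other islet cells (4 genes, nearly all from Gcg) summed to 135 to 175 CPM in PTHrP and 144 to 153 CPM in DsRed. The 10 markers of exocrine and duct cells, fibroblasts, endothelium and leukocytes summed to 2.93 to 4.59 CPM in PTHrP and 4.65 to 5.76 CPM in DsRed, and their part in the results was not tested. PTHrP replicate 2 stood apart from the other 5 libraries. Its counts differed from theirs by a chi-square per gene of 58.4 to 72.5, against 9.16 to 38.2 among the other pairs, and the calls and medians are given with and without it. In bulk RNA, fewer cells that express a gene and less of its RNA per cell cannot be told apart.

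A synthetase joins an amino acid to the matching tRNA at the cost of ATP, and the charged tRNA then carries that amino acid to the ribosome. Cells hold a cytosolic set and a mitochondrial set, both encoded in the nucleus, and the mitochondrial set serves only the few proteins made inside the organelle. Synthetases fall into class I and class II by the fold of their catalytic domain, and several cytosolic ones sit together in the multi-synthetase complex on the scaffold proteins AIMP1, AIMP2 and AIMP3. Uncharged tRNA activates the kinase GCN2, and the endoplasmic reticulum stress kinase PERK acts on the same translation factor, eIF2. Both favour translation of ATF4, a transcription factor whose known targets include many cytosolic synthetase genes and which binds C/EBP-ATF response elements. Beta cells make large amounts of proinsulin, and this arm of the stress response is well described in them. The title of the series names endoplasmic reticulum stress as its subject.

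The core of the C/EBP-ATF response element, TGATGNAA on either strand, was searched for in the RefSeq promoter windows of GRCm38.p6, each running from 250 bases before to 50 bases after a gene's start. Windows were found for 27 of the 37 genes, 13 cytosolic or dual and 14 mitochondrial. The genes without one included Cars, Hars, Hars2, Lars, Nars, Pars2, Rars, Vars and Wars. The element's core was present in 5 of the 13 cytosolic windows (Aars, Gars, Iars, Tars and Yars) and in 0 of the 14 mitochondrial windows, while 3.97% of all 32851 windows held it. For each of the 5 genes 1 match is shown as 30 bases, read 5′ to 3′ on the strand that carries TGATGNAA, because they mark the genes whose values follow. Capitals mark the core.
Gars, chr6:55037960-55037989, minus strand: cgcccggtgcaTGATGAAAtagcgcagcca
Tars, chr15:11399655-11399684, plus strand: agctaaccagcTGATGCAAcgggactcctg
Yars, chr4:129189895-129189924, plus strand: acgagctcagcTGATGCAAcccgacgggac
Iars, chr13:49682126-49682155, minus strand: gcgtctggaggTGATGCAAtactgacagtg
Aars, chr8:111033840-111033869, minus strand: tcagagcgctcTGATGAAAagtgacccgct
The core began at -30 from the RefSeq start in Gars, -15 in Tars, 10 in Aars, 8 in Iars and 4 in Yars. RefSeq starts can differ from the GENCODE gene positions given below. The form TGATGCAA occurred in 3 of these 5 matches and TGATGAAA in the other 2. Aars held another match, TGATGCAA at -112, that is not shown.

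The bases upstream of Gars and Tars, which hold a match, and of Mars1, which holds none and whose fold change was the largest of the synthetase genes, are shown on the strand of the gene. Capitals mark the core, here read as its reverse complement.
Gars, chr6:55037751-55038000, plus strand, 250 bases: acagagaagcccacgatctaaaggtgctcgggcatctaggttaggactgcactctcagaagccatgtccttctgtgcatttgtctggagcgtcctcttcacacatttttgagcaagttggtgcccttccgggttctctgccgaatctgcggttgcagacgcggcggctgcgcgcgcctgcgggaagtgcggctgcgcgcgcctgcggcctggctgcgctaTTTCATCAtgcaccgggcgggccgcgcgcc
Tars, chr15:11399666-11399908, minus strand, 243 bases: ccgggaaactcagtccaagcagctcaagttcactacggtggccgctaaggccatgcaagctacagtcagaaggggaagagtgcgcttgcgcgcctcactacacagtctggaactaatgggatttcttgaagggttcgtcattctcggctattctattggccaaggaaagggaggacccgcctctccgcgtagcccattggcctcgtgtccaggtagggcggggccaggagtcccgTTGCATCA
Mars1, chr10:127311787-127312036, minus strand, 250 bases: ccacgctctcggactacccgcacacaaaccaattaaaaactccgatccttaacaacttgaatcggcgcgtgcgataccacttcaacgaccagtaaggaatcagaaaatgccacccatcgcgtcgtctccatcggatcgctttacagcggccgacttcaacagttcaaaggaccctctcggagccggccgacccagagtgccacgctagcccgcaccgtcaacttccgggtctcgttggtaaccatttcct
These stretches are rich in G and C, which made up 62.4%, 57.6% and 55.2% of the bases in Gars, Tars and Mars1. A match to these letters is a description of the sequence and not a measured binding site.

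At an adjusted p of 0.05, the edgeR quasi-likelihood test called no synthetase gene between PTHrP and DsRed cells. It called 9 of 21141 genes tested (0.0426%; 0.0189% higher and 0.0237% lower in PTHrP), and 0 of the 37 synthetase genes. All 37 had passed the filter on low counts. At an unadjusted p under 0.05, 13 of the 37 were reached, against 8.9% of all genes tested. Of the 13, 12 were higher in PTHrP, against 4.92% of all genes, and 1 was lower, against 3.98%. DESeq2 called 2 of them, Lars (adjusted p = 0.0426) and Mars1 (adjusted p = 0.00113), both higher. Of the 12553 genes to which it gave an adjusted p, DESeq2 called 0.828% (0.534% higher). Mars1 was also called by limma-voom (adjusted p = 0.0372), against 18 of 21141 genes tested (0.0851%). Fold changes were above 0 in 30 of the 37 genes, against 48.7% of all genes tested. In 13 genes all 3 PTHrP values lay above all 3 DsRed values, against 8.45% of all genes, and in 1 gene, Mars2, all lay below, against 7.88% of all genes. Transcripts that can vary with RNA handling were read from the same fit. The nuclear RNA Malat1 measured 20.6, 5.54 and 19.5 CPM in PTHrP and 37.7, 27.3 and 23.8 CPM in DsRed, and the mitochondrial ribosomal RNA mt-Rnr2 57.5, 43.0 and 68.9 CPM against 82.0, 76.2 and 102 CPM. Both were lower in all 3 PTHrP libraries (log2 fold changes -0.96 and -0.62, adjusted p = 0.687 and 0.41, edgeR). The other mitochondrial ribosomal RNA, mt-Rnr1, had overlapping groups, at 4.84, 7.245 and 6.17 CPM in PTHrP and 6.075, 5.81 and 8.84 CPM in DsRed. Its log2 fold change was -0.18 (adjusted p = 0.833, edgeR). The part of these transcripts in the synthetase values was not tested.

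Differences in the synthetase genes were small. Over the 20 cytosolic or dual genes the median log2 fold change was 0.09, with a range from -0.08 to 0.37, and over the 17 mitochondrial genes it was 0.05, with a range from -0.34 to 0.24. Over all genes tested the median was -0.01. Fold changes above 0 were found in 16 of the 20 cytosolic genes and in 14 of the 17 mitochondrial genes. The groups did not overlap in 9 of the 20, all with PTHrP higher, and in 5 of the 17, of which 4 had PTHrP higher. The difference between the compartments was not tested.

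**Figure D1:**
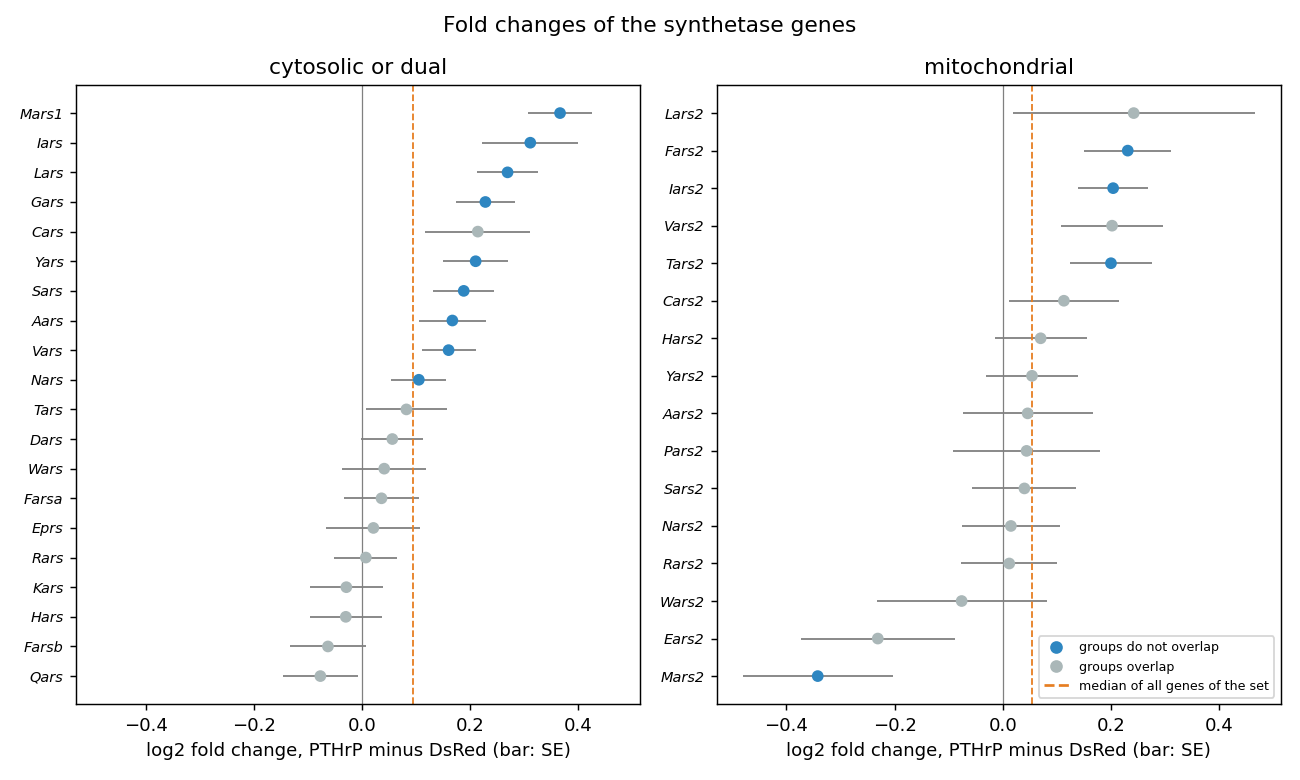
Log2 fold change of each synthetase gene in PTHrP minus DsRed libraries (3 against 3), with bars of 1 SE from edgeR, cytosolic or dual genes on the left and mitochondrial genes on the right. Blue points are genes whose groups do not overlap, grey points are genes whose groups overlap, and the dashed line is the median of all 20 cytosolic and all 17 mitochondrial genes (0.09 and 0.05), of which 16 mitochondrial genes are drawn.

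Mars1, the cytosolic methionyl-tRNA synthetase (ENSMUSG00000040354, chr10:127296221-127311786, minus strand), had the smallest p of the family. Its level was 433, 391 and 425 CPM in PTHrP replicates 1 to 3 and 309, 337 and 323 CPM in DsRed replicates 1 to 3. The lowest PTHrP library thus lay above the highest DsRed library. The means were 416 ± 22.6 and 323 ± 14.2 CPM (SD, n = 3 each), a log2 fold change of 0.37 with an SE of 0.06, and the adjusted p from edgeR was 0.0711. That p lay between 1.51e-05 and 0.538 over all the settings tried, and the fold change was above 0 in each. The gene's exons overlap Ddit3, which encodes the stress factor CHOP, by 68 bases on the opposite strand, and whether the counting used strand is not given in the sources used here. Ddit3 itself had means of 116 ± 9.38 and 117 ± 3.27 CPM (log2 fold change -0.02).

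Lars and Iars, which charge the branched-chain amino acids leucine and isoleucine in the cytosol, came next in the complex that also holds the methionyl enzyme. Lars (ENSMUSG00000024493, chr18:42202298-42262194, minus strand) measured 243, 230.1 and 239 CPM in the PTHrP libraries and 187, 199 and 206 CPM in the DsRed libraries. Its groups were well separated, with a log2 difference of 0.27 (SE 0.06, adjusted p = 0.216, edgeR). Iars (ENSMUSG00000037851, chr13:49682100-49734267, plus strand) measured 408, 311 and 372 CPM against 281, 289.9 and 309 CPM. Here PTHrP replicate 2 lay just above the highest DsRed library while the other PTHrP libraries stood well clear, and the log2 difference was 0.31 (SE 0.09, adjusted p = 0.37, edgeR). A pseudogene, Gm4849, matches 1656 bases of the Iars transcript at 96% identity, so some reads of either could be assigned to the other. Gm4849 held 132 to 288 counts in the 6 libraries, a level of 1.53 to 3.35 CPM.

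Outside the complex, Gars and Sars combined high levels with separated groups. Gars (ENSMUSG00000029777, chr6:55038007-55079500, plus strand), whose single gene supplies glycyl-tRNA synthetase to both cytosol and mitochondria, measured 615, 640 and 602 CPM in PTHrP and 502, 532 and 551 CPM in DsRed. All 3 PTHrP libraries were higher, with a log2 difference of 0.23 (SE 0.06, adjusted p = 0.281, edgeR). Sars, the seryl enzyme (chr3:108424865-108445209), measured 728, 729.7 and 718 CPM against 599, 635 and 675 CPM. The PTHrP libraries were nearly equal and the DsRed libraries spread over a wider range below them (log2 fold change 0.19, adjusted p = 0.37, edgeR).

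Yars, Vars and Aars charge tyrosine, valine and alanine. Yars (chr4:129189760-129219607) measured 354, 311 and 346 CPM in PTHrP and 283, 295 and 297 CPM in DsRed, with PTHrP replicate 2 again the nearest to the controls (log2 fold change 0.21, adjusted p = 0.363, edgeR). Vars (chr17:35000987-35016322) measured 475, 471 and 466 CPM against 422, 434 and 408 CPM, the narrowest PTHrP range of the trio relative to its distance from DsRed (log2 fold change 0.16, adjusted p = 0.378, edgeR). Aars (chr8:111033144-111057664) measured 1124, 967 and 1091 CPM against 909.7, 964 and 961 CPM. Its PTHrP replicate 2 cleared the highest DsRed library by only a few CPM (log2 fold change 0.17, adjusted p = 0.462, edgeR). Nars, the asparaginyl enzyme, completed the 9 cytosolic genes with separate groups, with 563 to 603 CPM among PTHrP libraries against 536 to 549 CPM among DsRed libraries.

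The remaining cytosolic genes had groups that overlapped. Cars, the cysteinyl enzyme, measured 284, 217 and 287 CPM in PTHrP and 238, 219 and 222 CPM in DsRed, so that PTHrP replicate 2 was the lowest of the 6 libraries and the other PTHrP libraries were the highest. Its log2 difference was 0.21 (SE 0.10, adjusted p = 0.565, edgeR). Tars, the threonyl enzyme, had the same order, at 195, 159 and 189 CPM against 176, 168 and 169.6 CPM (log2 fold change 0.08). Log2 fold changes between 0.01 and 0.06 were found for Dars (aspartate), Wars (tryptophan), Farsa (the alpha subunit of the phenylalanyl enzyme), Eprs (the fused enzyme for glutamate and proline) and Rars (arginine). Eprs was highest in PTHrP replicate 2, at 643 CPM. PTHrP replicates 1 and 3 stood at 533 and 516 CPM, and DsRed replicates 1 to 3 at 509, 564 and 594 CPM. Its log2 fold change was -0.08 without PTHrP replicate 2.

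Fold changes below 0 were found in 4 cytosolic or dual genes, none beyond the spread between libraries. Qars, the glutaminyl enzyme, measured 42.2, 42.8 and 41.3 CPM in PTHrP and 46.7, 44 and 42.4 CPM in DsRed (log2 fold change -0.08, adjusted p = 0.80, edgeR). Farsb, the beta subunit of the phenylalanyl enzyme, measured 80.3, 92.8 and 80.9 CPM against 86.2, 88.5 and 90.8 CPM (log2 fold change -0.06). Its PTHrP replicate 2 was the highest library of the 6 and its other PTHrP libraries the lowest. Hars, the histidyl enzyme, measured 74.8, 68.7 and 68.1 CPM against 75.5, 70.0 and 70.5 CPM, and Kars, the lysyl enzyme shared by cytosol and mitochondria, 99.2, 89.1 and 92.6 CPM against 97.6, 99.3 and 89.8 CPM. Both had log2 fold changes of -0.03 and groups that overlapped.

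**Figure D2:**
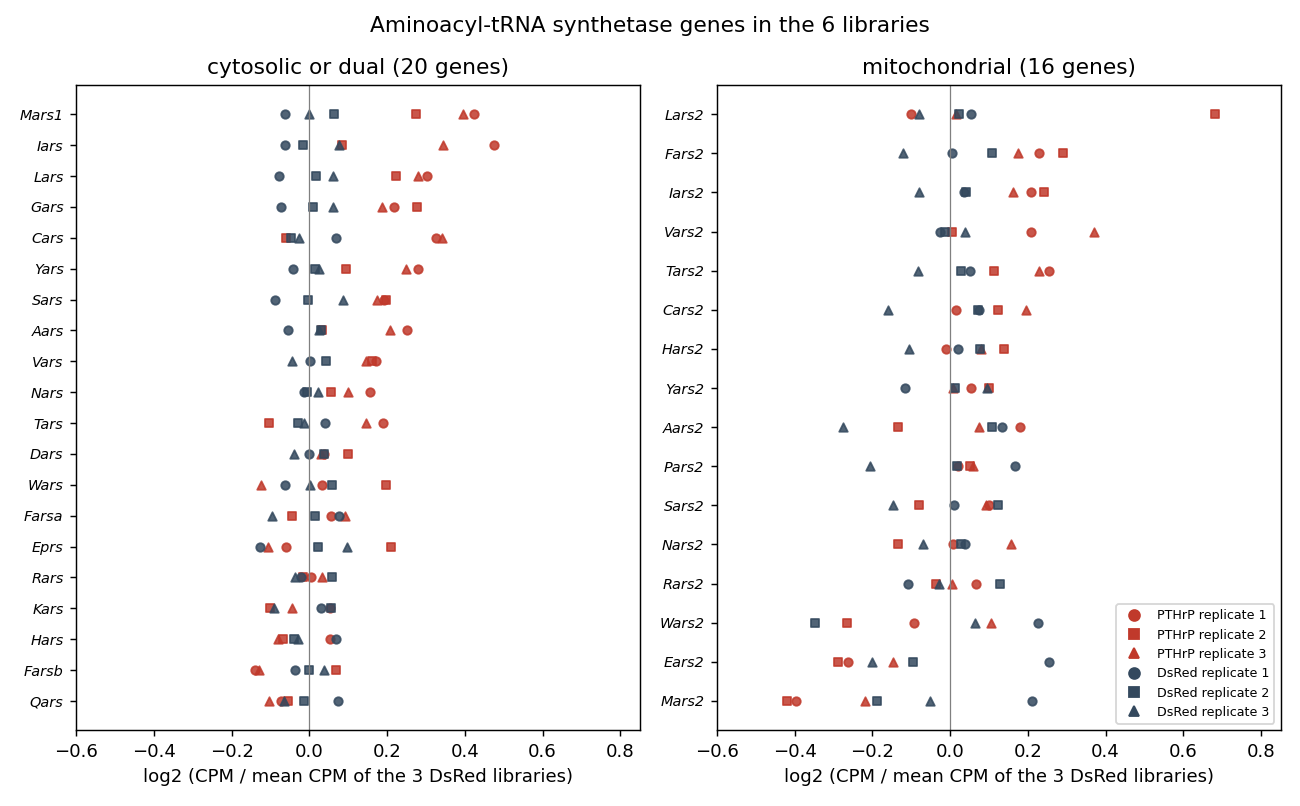
Level of 20 cytosolic or dual and 16 mitochondrial synthetase genes in each of the 6 libraries, as log2 of its CPM over the mean CPM of the 3 DsRed libraries, with PTHrP in red and DsRed in dark blue and the replicate shown by the shape of the point. The PTHrP points of Mars1, Lars and Gars lie to the right of every DsRed point, those of Qars, Hars and Kars overlap the DsRed points, and PTHrP replicate 2 lies far from the rest for Lars2.

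Members of the multi-synthetase complex ranged widely. The 8 complex genes had a median log2 fold change of 0.04, with Mars1, Iars and Lars between 0.27 and 0.37 and the other 5 (Dars, Eprs, Kars, Qars and Rars) between -0.08 and 0.06. The 12 cytosolic or dual genes outside it had a median of 0.13, with 10 above 0. None of the 3 scaffold genes had an unadjusted p under 0.05, against 8.9% of all genes tested. Aimp1 measured 44.7 ± 2.70 CPM in PTHrP and 41.4 ± 0.189 CPM in DsRed (log2 fold change 0.11, adjusted p = 0.692, edgeR), and Aimp2 31.1 ± 2.81 and 33.5 ± 1.57 CPM (log2 fold change -0.10, adjusted p = 0.774). By catalytic class, the 9 cytosolic class I genes had a median of 0.21 and the 10 class II genes a median of 0.07, with Eprs, which holds a domain of each class, left out of both. None of these differences between subsets was tested.

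The cytosolic genes with separate groups had the higher median level. Levels between genes were compared as CPM per kilobase of the longest protein-coding transcript. The 9 genes whose groups did not overlap had a median of 125 CPM per kilobase (54.6 to 241), and the 11 others a median of 44 CPM per kilobase (15.4 to 114). Eprs, at 114 CPM per kilobase and a log2 fold change of 0.02, and Lars, at 54.6 CPM per kilobase and a log2 fold change of 0.27, stood apart from this order, and Cars, with overlapping groups, lay at 75.9 CPM per kilobase beside Iars, with separate groups, at 74.2. The 5 cytosolic genes with the TGATGNAA core shown above had log2 fold changes from 0.08 to 0.31 with a median of 0.21, and the 8 cytosolic windows without it belonged to genes with a median of 0.03. Mars1 is among the 8. The cytosolic genes Cars, Hars, Lars, Nars, Rars, Vars and Wars had no window and enter neither median. Of these, Lars, Nars and Vars had separate groups and the others had overlapping groups. Over all tested genes with a window, the 357 tested genes with the core had a median log2 fold change of -0.01 and the 11774 without it also had a median of -0.01.

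The same windows were searched for 3 other motifs. The endoplasmic reticulum stress response element (CCAAT and CCACG with 9 bases between them), searched like the others on both strands, was in 0 of the 27 windows and in 0.119% of all windows. The E-box CACGTG was in 4 cytosolic windows (Aars, Farsb, Iars and Tars) and in that of Ears2, against 7.15% of all windows. The core of the site for NRF1, a regulator of nuclear genes for mitochondrial proteins (GCGCA and GCGC with 1 base between them), was in 3 cytosolic windows (Farsb, Kars and Tars) and in those of Iars2 and Mars2, against 4.6% of all windows. No match shared a base with a match to another motif, and in Tars the E-box and an NRF1 core lay side by side after the start.

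Iars2, Fars2 and Tars2 were among the mitochondrial genes that were higher in all 3 PTHrP libraries, and Mars2 was lower in all 3. Iars2, the mitochondrial isoleucyl enzyme (chr1:185284726-185329396), measured 66.7, 68.2 and 64.5 CPM in PTHrP and 59.2, 59.4 and 54.5 CPM in DsRed. The groups were apart by more than the width of either, and the log2 difference was 0.20 (SE 0.07, adjusted p = 0.385, edgeR), the lowest adjusted p of the mitochondrial set. Its exons overlap 2034 bases of Rab3gap2 on the opposite strand, a gene with a log2 fold change of -0.07.

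Fars2 (chr13:36117412-36726280), the single-chain phenylalanyl enzyme of mitochondria, measured 37.7, 39.4 and 36.4 CPM in PTHrP and 32.3, 34.7 and 29.7 CPM in DsRed (log2 fold change 0.23, adjusted p = 0.414, edgeR). Its exons share 115 bases with Lyrm4 on the opposite strand, which was also higher in all 3 PTHrP libraries (12.6 ± 0.733 against 10.1 ± 0.427 CPM, n = 3 each), and the part of such reads in the result was not tested. Tars2, the threonyl enzyme (chr3:95739976-95760206), measured 41.9, 38 and 41.2 CPM against 36.4, 35.8 and 33.2 CPM (log2 fold change 0.20, adjusted p = 0.463, edgeR). In Iars2, Fars2 and Tars2 alike DsRed replicate 3 was the lowest library, and it was the lowest library for 9 of the 17 mitochondrial genes.

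Mars2, the mitochondrial methionyl enzyme (ENSMUSG00000046994, chr1:55237177-55248470, plus strand), went the other way from Mars1. It measured 5.67, 5.57 and 6.41 CPM in PTHrP and 8.63, 6.54 and 7.20 CPM in DsRed. The groups were separated by a small gap, with DsRed replicate 1 well above the rest (log2 fold change -0.34, SE 0.14, adjusted p = 0.502, edgeR). The other negative values were those of Ears2, for glutamate (log2 fold change -0.23), and Wars2, for tryptophan (-0.08), whose groups overlapped. Ears2 exons share 89 bases on the opposite strand with Ubfd1, which held 14917 to 18844 counts against 518 to 768 for Ears2. Ubfd1 was itself lower in all 3 PTHrP libraries (log2 fold change -0.13), and the part of such reads in the Ears2 value was not tested. Positive values with overlapping groups were found for Vars2 (0.20), Cars2 (0.11), Hars2 (0.07), Yars2 (0.05), Aars2 (0.05), Pars2 (0.04), Sars2 (0.04), Nars2 (0.02, adjusted p = 0.974) and Rars2 (0.01). Cars2 exons share 422 bases on the opposite strand with Naxd, which held 4188 to 5629 counts against 1192 to 1585 for Cars2. The part of such reads in the Cars2 value was not tested.

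Lars2, the mitochondrial leucyl enzyme (ENSMUSG00000035202, chr9:123366927-123462666, plus strand), was unlike the other members in its level. It measured 3121, 5373 and 3382 CPM in PTHrP and 3473, 3403 and 3169 CPM in DsRed. The libraries other than PTHrP replicate 2 lay close together, and that library alone carried the difference of 0.24 on the log2 scale (SE 0.22, adjusted p = 0.818, edgeR). Without it the log2 fold change was -0.04. Lars2 made up 88.8% to 93.4% of the summed CPM of the mitochondrial genes in every library. A noncoding gene, Gm15564, matches 72 bases of the Lars2 transcript (positions 3278 to 3349 of 3894, in its 3′ UTR) at 98.6% identity. Other short matches of the Lars2 transcript were not examined. Gm15564 was also highest in PTHrP replicate 2, but did not follow Lars2 over the other 5 libraries, with 93.1, 174 and 108 CPM against 88, 91.4 and 118 CPM, and how reads were divided between the pair is not given in the sources used here.

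**Figure D3:**
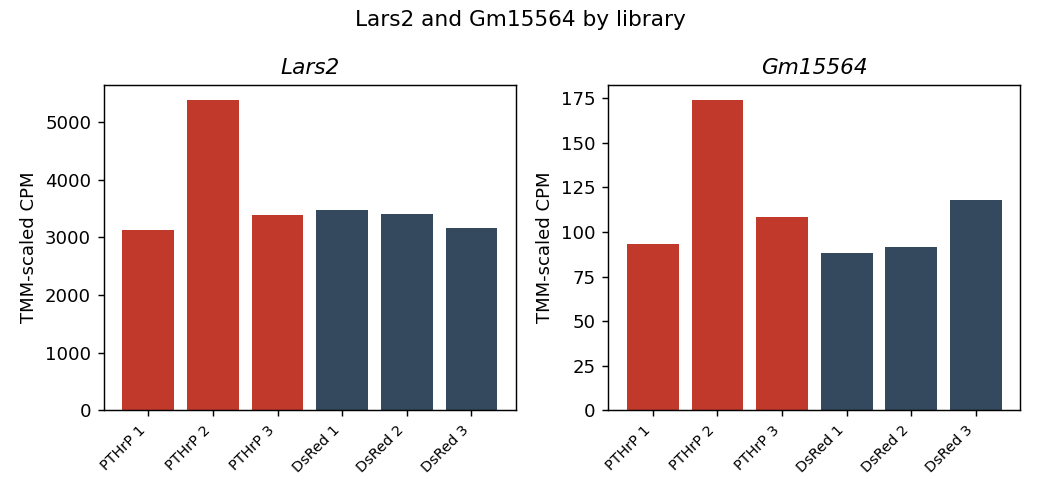
TMM-scaled CPM of Lars2 (left) and of the noncoding gene Gm15564 (right) in each of the 6 libraries, with PTHrP in red and DsRed in dark blue and 1 bar per library. Both genes are highest in PTHrP replicate 2, at 5373 and 174 CPM.

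Summed over the family, the cytosolic genes amounted to 6743, 6398 and 6553 CPM in the PTHrP libraries and 5694, 5935 and 5992 CPM in the DsRed libraries. Every PTHrP sum was above every DsRed sum, with means of 6565 ± 173 and 5874 ± 158 CPM (SD, n = 3 each). The mitochondrial genes without Lars2 summed to 393, 379 and 400.4 CPM in PTHrP and 369.8, 371 and 343 CPM in DsRed, again with no overlap and with means of 391 ± 10.6 and 361 ± 16.1 CPM. With Lars2 the means were 4350 ± 1220 and 3709 ± 175 CPM, and the groups overlapped.

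Set against each other per amino acid, the cytosolic gene was far more abundant than its mitochondrial counterpart in nearly every case. The 17 pairs had a median ratio of cytosolic to mitochondrial CPM per kilobase of 14 in PTHrP and 12.6 in DsRed. Gars had the highest level of the cytosolic genes, at 260 ± 8.18 CPM per kilobase in PTHrP and 222 ± 10.4 in DsRed (SD, n = 3 each), and Qars the lowest, at 15 ± 0.256 and 15.9 ± 0.775. Of the mitochondrial genes Lars2 had the highest level (938 CPM per kilobase over the 6 libraries), Fars2 the next (16.5) and Mars2 the lowest (0.591). The rank of Fars2 rests on its transcript length of 2125 bases. Per kilobase of all exons of a gene, Rars2 (7.74), Yars2 (7.25), Iars2 (6.99) and Sars2 (6.65) lay above Fars2 (6.09). Leucine was the only pair whose ratio was below 1, from 0.0419 to 0.0762 over the libraries. That ratio rests on the reads assigned to Lars2, whose origin was not tested.

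Methionine was the pair with the widest ratio per kilobase and the largest difference between groups. The rank of its ratio rests on the Mars2 transcript length of 11294 bases, the longest of the family. In CPM, Pars2 lay below Mars2, at 5.72 against 5.88 in PTHrP and 5.55 against 7.46 in DsRed. Mars1 exceeded Mars2 by a ratio of 271 ± 19.5 in PTHrP and 168 ± 30.1 in DsRed (SD, n = 3 each), and the ratio ran from 137 to 291 over the 6 libraries. Phenylalanine (Farsa over Fars2) had the narrowest ratio of those above 1, at 2.18 ± 0.191 in PTHrP and 2.50 ± 0.145 in DsRed. Both fold changes were above 0 in 13 of the 17 pairs, the signs were opposite in 4, and both were below 0 in 0. The cytosolic fold change was the larger in 10 of the 17. Glycine, lysine and glutamine had no mitochondrial gene of their own in the set. Gars and Kars serve both compartments, and in mitochondria glutaminyl-tRNA is made by amidation of glutamyl-tRNA.

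**Figure D4:**
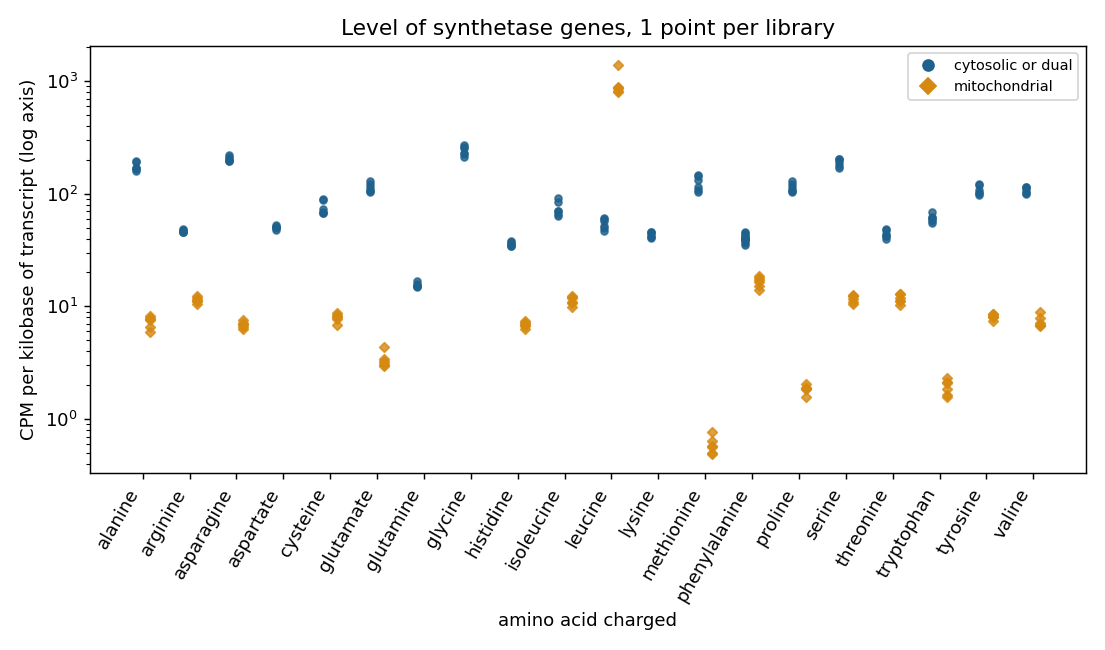
Level of 20 cytosolic or dual and 16 mitochondrial synthetase genes by the amino acid it charges, in CPM per kilobase of transcript on a log axis, with 1 point per library (6 per gene; phenylalanine has 2 cytosolic genes, and Eprs is drawn under both glutamate and proline). Cytosolic or dual genes lie between 15.4 and 241 on average and mitochondrial genes between 0.591 and 16.5, apart from Lars2 at 938.

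Genes that work beside the synthetases were read from the same fit. None of the 40 genes in the 5 neighbouring lists was called by edgeR, against 0.0426% of all genes tested. An unadjusted p under 0.05 was reached by 8.9% of all genes tested, the share to set beside the counts below. Of the 6 cytosolic elongation factor genes 1 had an unadjusted p under 0.05, Eef2, which moves the ribosome along the mRNA (709 ± 59.8 against 601 ± 23.4 CPM, n = 3 each, log2 fold change 0.24, adjusted p = 0.34, edgeR). Eef1a1, which delivers charged tRNA to the ribosome, had a log2 fold change of 0.24 that came with 1177 CPM in PTHrP replicate 2 against 723 to 816 CPM in the other 5 libraries, and that was 0.03 without that library. Of the 12 mitochondrial translation genes 1 reached that level, Gatb, a subunit of the amidase that makes glutaminyl-tRNA (17.9 ± 1.02 against 14.2 ± 1.12 CPM, log2 fold change 0.33, adjusted p = 0.37), while Mtif2, an initiation factor, had a log2 fold change of 0.16. Of 10 related tRNA enzymes 1 did, Dtd2, which removes wrongly attached amino acids (15.4 ± 0.543 against 12.4 ± 1.24 CPM, log2 fold change 0.31, adjusted p = 0.399), and Prorsd1 had a log2 fold change of 0.21.

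The 9 genes of uncharged tRNA sensing and the ATF4 response had a median log2 fold change of -0.01. Asns, asparagine synthetase and a known target of ATF4, measured 674, 705 and 690.3 CPM in PTHrP and 545, 575 and 633 CPM in DsRed, with all PTHrP libraries above all DsRed libraries (log2 fold change 0.24, adjusted p = 0.314, edgeR). Trib3, another target of ATF4, measured 589 to 635 CPM against 555 to 584 CPM (log2 fold change 0.10, adjusted p = 0.624). The remaining 7 genes (Atf4, Chac1, Ddit3, Eif2ak4, Eif2s1, Gcn1 and Sesn2) had overlapping groups. Groups did not overlap in 16.3% of all genes tested. Fold changes were above 0 in 4 of the 9 genes, against 48.7% of all genes tested.

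Without PTHrP replicate 2, edgeR called 213 of 22316 genes (0.954%). In that fit 6 synthetase genes were called higher, all cytosolic, against 0.636% of all genes called higher. They were Mars1 (adjusted p = 0.000457), Iars (0.000989), Cars (0.00324), Yars (0.0108), Lars (0.0111) and Aars (0.022). The median log2 fold change of the cytosolic genes was then 0.15 and that of the mitochondrial genes 0.09, and no mitochondrial gene was called. The difference between the compartments in this respect was not tested. Without DsRed replicate 3, the mitochondrial median was 0.02, with 9 of the 17 genes above 0, while the cytosolic median stayed at 0.10. PTHrP replicate 2 had only 10 of the 20 cytosolic genes above their own mean over the libraries, against 17 and 14 in PTHrP replicates 1 and 3 and 2 to 7 in the DsRed libraries.

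**Figure D5:**
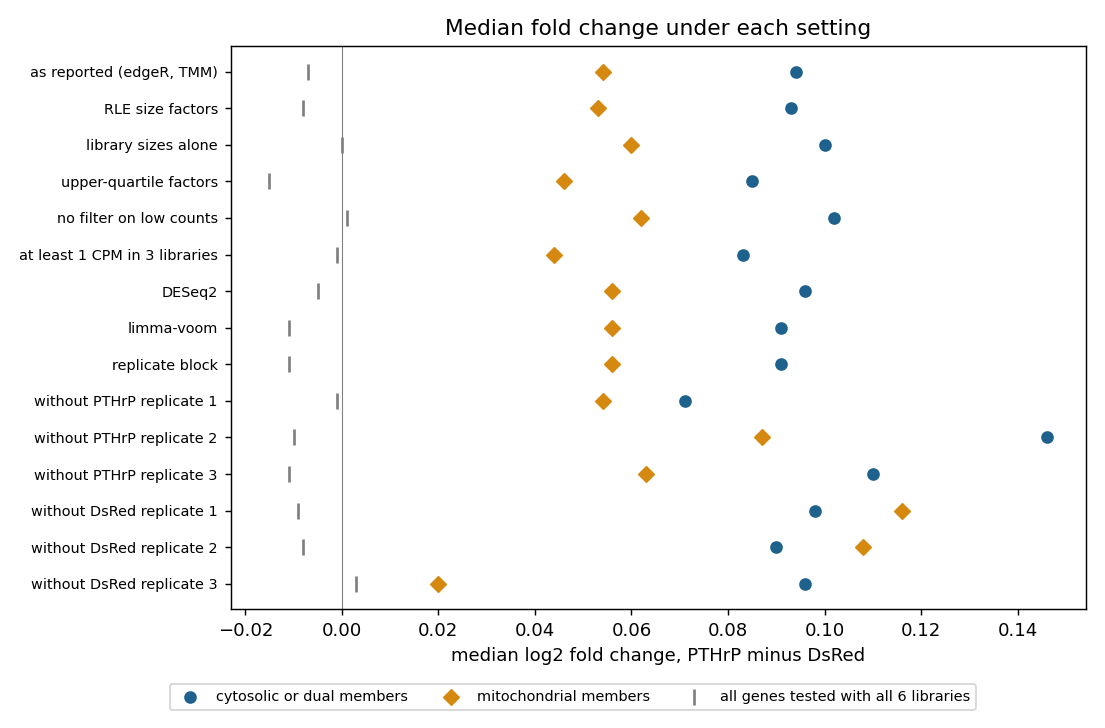
Median log2 fold change (PTHrP minus DsRed) of the 20 cytosolic or dual genes (blue circles), the 17 mitochondrial genes (orange diamonds) and all genes tested with the 6 libraries (grey ticks), under the reported fit and 14 other settings. The cytosolic median lies between 0.07 and 0.15 and the mitochondrial median between 0.02 and 0.12, each above the median of all genes in every setting shown.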

How the data were processed

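RNA from 6 MIN6 libraries was sequenced. The submitters' processing notes name bcl2fastq, STAR, featureCounts 2.0.3 (Subread) and the build GRCm38. The values used are whole-number counts per gene, deposited by the authors in 1 table with no normalization, per the file headers. How strand and reads matching several places were treated is not given in the sources used here.

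Of 55774 entries, 287 repeats of an Ensembl identifier with identical counts were removed. In R 4.3.3, edgeR 4.0.16 was run on all genes with TMM factors, filterByExpr by group and the robust quasi-likelihood F-test, group as the only term, two-sided, with Benjamini-Hochberg adjustment over 21141 genes and a threshold of 0.05. Standard errors are the coefficient over the square root of F. CPM are TMM-scaled. The fit was tested on simulated data. With 3 libraries against 3, an exact permutation test cannot go below p = 0.1, so none was run on single genes.

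Alternatives were other size factors, filters, DESeq2 1.42.0, limma-voom 3.58.1, a replicate block and each library left out. The members and gene lists were chosen with earlier results of these data known. Every member was named, except 1 that is not reported here by name but enters the counts and medians. Apart from it, values in every library were given for members past the threshold, the 8 cytosolic and 5 mitochondrial members with the smallest p, cytosolic members below 0 and the highest and lowest per kilobase. Up to 2 genes with the smallest p were named for each neighbouring list. Cars, Tars, Nars and Eprs were given values after these had been seen. Positions, transcript lengths and overlaps come from GENCODE on GRCm38, and promoter windows from RefSeq on GRCm38.p6.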

Additional observations from a re-analysis of the deposited data

How the results depend on the processing

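Over 14 other settings the cytosolic and the mitochondrial median stayed above 0, and 23 of the 37 genes kept their sign in all. Genes called, 9 as reported, were 14 with library sizes alone (0.0662% of 21141) and 220 with no filter on low counts (0.495% of 44413). DESeq2 called 104 (0.828% of 12553) and limma-voom 18 (0.0851% of 21141). Synthetase genes called, 0 as reported, were 1 with library sizes alone (Mars1), 4 with no filter (Gars, Iars, Lars and Mars1), 2 with DESeq2 (Lars and Mars1) and 1 with limma-voom (Mars1). Leaving out 1 library at a time gave 2 to 213 genes called (0.00877% to 0.954% of those tested) and 0 to 6 synthetase genes called. In those fits 14 to 19 synthetase genes had groups that did not overlap. The share of all genes was 22.8% to 30.1% in the same fits and 16.3% with all libraries. Cytosolic medians ran from 0.071 to 0.146 and mitochondrial medians from 0.02 to 0.12. The 213, the 6 and the cytosolic 0.146 came without PTHrP replicate 2, the mitochondrial 0.02 without DsRed replicate 3. The cause was not tested. Without Lars2, an alternative chosen after seeing the data, the mitochondrial median was 0.05.

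The labels do not say whether the replicate numbers mark pairs of libraries. Same-numbered libraries correlated at 0.17, -0.06 and -0.03 in their deviations over 11801 genes. PTHrP replicate 1 correlated best with DsRed replicate 1, and PTHrP replicate 2 with DsRed replicate 3 (0.175). With 3 libraries a group, such correlations cannot decide whether the libraries were paired. With the replicate number as a block, 7 genes and 0 synthetase genes were called, with medians of 0.09 and 0.06 and an adjusted p of 0.223 for Mars1. The lowest count of a synthetase gene in a library was 440 (Pars2), and with 3 libraries a group the precision rests on few replicates.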
